A study of Mus musculus with 12 samples.

Results

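The genes described here are 54 genes of late G2 phase and mitosis: cyclins and regulators of CDK1, spindle, kinetochore and cytokinesis proteins, and proteins that shape mitotic chromosomes. They were taken by symbol from the count table, in which all 54 were found among 25899 different symbols, and all 54 were abundant enough to be tested. RNA was sequenced from intraepithelial lymphocytes (IEL) of the mouse small intestine, the T cells that sit between the epithelial cells of the gut lining. CD8αα from CD4 are cells sorted as TCRβ and CD8αα positive from Rag2-deficient hosts that had been given CD4 T cells (CD4 hosts), and CD4 IEL are the cells sorted as TCRβ and CD4 positive from such hosts. CD8αα from CD8αβ are the TCRβ and CD8αα positive cells from Rag2-deficient hosts given CD8αβ T cells (CD8αβ hosts), and CD8αβ IEL are the TCRβ and CD8αβ positive cells from such hosts. In all 4 groups the donors were wild type for Themis, the donor cells came from lymph nodes, at least 2000000 were injected into a vein in 1 dose, and tissue was taken 1 week later. Without Rag2 a mouse forms neither T nor B cells, so the hosts lack the lymphocytes that normally share the gut with transferred cells, while their innate lymphocytes and myeloid cells remain. The sources used here give neither age nor sex of the hosts.

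A cell enters mitosis when B-type cyclins bind and activate the kinase CDK1, after CDC25 phosphatases have removed the phosphates that hold it back. The chromosomes then condense, microtubules of the spindle attach to them at kinetochores, and a checkpoint holds the cell until every kinetochore is attached. The anaphase-promoting complex (APC/C) then marks cyclin B and securin for destruction, the sister chromatids part, and cytokinesis divides the cell. Most of these genes are transcribed only late in the cycle, under repression by the DREAM complex in resting cells and activation by B-MYB and FOXM1 in cycling ones, so their transcripts are widely used as a sign of dividing cells. T cells transferred into hosts without lymphocytes are known to divide.

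Each group had 3 libraries, numbered 1 to 3 in the labels, with totals of 5620257 to 11070734 counts. Levels are counts per 1000000 (CPM) of a library total scaled by the TMM method. Differences are log2 fold changes from edgeR's quasi-likelihood test with their standard errors (SE), and a gene was called when its p-value, adjusted over all 12622 genes tested, was under 0.05. The labels do not say that libraries came from separate animals, so these p-values measure only the spread between the libraries. The CD8αα libraries matched their label in the coreceptor genes. Cd8a was at 2431 to 3249 CPM in them, Cd4 at 2.56 to 9.35 CPM and Cd8b1 at 2.53 to 20.6 CPM. They went against it in many T cell genes: of 14 T cell markers, 11 were called lower and 2 higher in CD4 hosts, and 9 lower and 2 higher in CD8αβ hosts. Cd3e, a chain of the T cell receptor complex, was at 3.21 to 22.1 CPM in the 6 CD8αα libraries, against 403 to 638 CPM in their 6 companions of CD4 IEL or CD8αβ IEL. Themis, a T cell signalling protein, was at 6.86 to 12.2 CPM in CD8αα, against 176 to 409.9 CPM in the companions. Cd3g, another chain of the receptor complex, was at 1901 to 3777 CPM in CD8αα, against 424 to 1001 CPM. Lck, a T cell kinase, was at 1670 to 2006 CPM in CD8αα, against 1935 to 2476 CPM, and Itgae, the integrin CD103, at 3815 to 4517 CPM, against 1484 to 2328 CPM. The CD8αα libraries also differed among themselves in sex-linked transcripts. Xist, the X-inactivation transcript, reached 373 to 645 CPM in 4 of them (CD8αα from CD4 replicates 1 and 2, and replicates 1 and 3 of the other CD8αα group), where the summed Y-linked genes were at 0.341 to 1.03 CPM. In the 2 remaining CD8αα libraries the Y-linked sum was 321 to 363 CPM and Xist 0.8497 to 1.25 CPM. The 6 companions had a Y-linked sum of 233 to 449 CPM, with Xist at 0 to 36.4 CPM. The words higher, lower and fell below therefore compare libraries by label and do not say that transferred cells changed.

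Promoter windows of 6 of these genes are shown because they hold, or lack, the elements through which late cell cycle genes are known to be controlled: the cell cycle homology region bound by DREAM and B-MYB complexes, searched as TTTGAA and as TTTAAA, and the CCAAT box bound by NF-Y. Windows run from 250 bases before to 50 bases after the annotated start, 5′ to 3′ on the strand of the gene, from RefSeq on GRCm38.p6, the assembly also named mm10. Capitals mark these 3 motifs on either strand, so that TTCAAA is TTTGAA read on the other strand and ATTGG is CCAAT read on the other strand. Ccnb1 is at chr13:100786437-100786736, Ccnb2 at chr9:70421505-70421804, Cdc20 at chr4:118437294-118437593, Top2a at chr11:99024140-99024439 and Pttg1 at chr11:43425932-43426231, all on the minus strand, and Ube2c is at chr2:164769679-164769978 on the plus strand.
Ccnb1: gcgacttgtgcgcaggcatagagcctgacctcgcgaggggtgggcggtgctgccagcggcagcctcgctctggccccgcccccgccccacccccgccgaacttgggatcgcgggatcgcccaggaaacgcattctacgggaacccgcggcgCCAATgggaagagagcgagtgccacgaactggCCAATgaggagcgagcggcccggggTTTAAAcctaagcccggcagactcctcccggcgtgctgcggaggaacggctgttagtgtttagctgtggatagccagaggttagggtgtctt
Ccnb2: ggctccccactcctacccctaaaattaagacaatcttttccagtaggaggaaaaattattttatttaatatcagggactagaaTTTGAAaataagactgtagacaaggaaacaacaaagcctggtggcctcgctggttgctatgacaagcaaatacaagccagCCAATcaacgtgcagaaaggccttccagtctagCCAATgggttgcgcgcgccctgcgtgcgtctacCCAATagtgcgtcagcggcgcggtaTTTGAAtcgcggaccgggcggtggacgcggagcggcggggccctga
Cdc20: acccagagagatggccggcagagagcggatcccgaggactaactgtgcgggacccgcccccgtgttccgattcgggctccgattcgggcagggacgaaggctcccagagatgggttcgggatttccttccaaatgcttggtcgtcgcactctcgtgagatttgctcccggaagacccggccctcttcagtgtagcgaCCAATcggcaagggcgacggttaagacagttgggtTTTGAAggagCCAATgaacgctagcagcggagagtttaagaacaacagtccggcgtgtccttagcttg
Ube2c: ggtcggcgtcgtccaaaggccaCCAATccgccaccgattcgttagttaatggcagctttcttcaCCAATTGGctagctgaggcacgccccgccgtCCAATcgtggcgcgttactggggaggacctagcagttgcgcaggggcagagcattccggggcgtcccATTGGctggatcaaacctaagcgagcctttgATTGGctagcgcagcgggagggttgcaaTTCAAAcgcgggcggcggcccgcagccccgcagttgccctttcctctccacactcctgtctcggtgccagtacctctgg
Top2a: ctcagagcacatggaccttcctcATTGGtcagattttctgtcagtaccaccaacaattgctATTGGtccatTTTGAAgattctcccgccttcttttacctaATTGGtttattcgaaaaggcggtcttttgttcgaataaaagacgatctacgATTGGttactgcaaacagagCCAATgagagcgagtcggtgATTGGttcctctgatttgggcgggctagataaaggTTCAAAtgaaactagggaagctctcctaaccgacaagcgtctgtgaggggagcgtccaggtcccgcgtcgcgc
Pttg1: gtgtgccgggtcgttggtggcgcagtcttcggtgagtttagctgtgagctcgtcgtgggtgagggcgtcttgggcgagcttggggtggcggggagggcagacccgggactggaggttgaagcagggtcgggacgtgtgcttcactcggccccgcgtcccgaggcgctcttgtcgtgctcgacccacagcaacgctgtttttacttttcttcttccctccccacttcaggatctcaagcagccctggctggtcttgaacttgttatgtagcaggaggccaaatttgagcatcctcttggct

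Counted from base 1 at the 5′ end of the window, with the first 250 bases before the start, TTTGAA began at base 233 in Cdc20, at bases 84 and 255 in Ccnb2, and, read on the other strand, at base 222 in Ube2c. Ube2c and Top2a each held 6 CCAAT boxes, and 2 of those in Ube2c overlap each other. Ccnb1 held TTTAAA at base 209 in place of TTTGAA, and Pttg1 held none of the 3 motifs. The Pttg1 window, which ends at 43426231, lies inside that gene as placed in the count table, where its 5′ end is at 43426251. The bases before that 5′ end were therefore not searched for Pttg1. The windows of Cdca3, Cdca8, Kif2c and Kif4, which held TTTGAA, also lie inside their genes as placed there. RefSeq windows were found for 44 of the 54 genes, 46 windows in all. TTTGAA was in 76.1% of these, against 17.9% of all 32851 mouse windows of that length and 12.2% of the windows of genes tested here. CCAAT was in 78.3% of them, against 37.4% of all windows, and TTTAAA in 19.6%, against 13.2%. Windows with both TTTGAA and CCAAT were 67.4% of those of the mitosis genes and 6.95% of all windows. Such matches describe the letters of the windows and do not show that a factor bound them. Windows for Ccna2, Cdc25c, Foxm1, Aurkb, Incenp, Spc24, Tpx2, Stmn1, Kif20a and Smc4 were not used here.

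Transcripts of the mitosis genes were lower in the libraries labelled CD8αα than in their companion IEL in both kinds of host. Summed over the 54 genes, they were at 962, 1085 and 1136 CPM in CD8αα from CD4, against 2509, 3024 and 2819.6 CPM in CD4 IEL, so that the mean in CD8αα from CD4 was 38.1% of that in CD4 IEL. In hosts of CD8αβ cells the sum was 1319, 1344 and 1207 CPM in CD8αα from CD8αβ, against 5095, 5849 and 5892 CPM in CD8αβ IEL, or 23.0% of the CD8αβ IEL mean. All 6 CD8αα libraries were below all 6 companion libraries. In bulk RNA, fewer dividing cells and less of these transcripts per dividing cell cannot be told apart.

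By edgeR's test, 50 of the 54 genes were lower and 0 higher in CD8αα from CD4 than in CD4 IEL, where 13.5% of all genes tested were called lower and 15.0% higher. The median log2 fold change was −1.84 over the mitosis genes and 0.02 over all genes tested. For 50 genes all 3 CD8αα from CD4 libraries were below all 3 CD4 IEL libraries, and 21.4% of all genes had that pattern. In CD8αα from CD8αβ 53 of the 54 genes were lower and 0 higher than in CD8αβ IEL, against 15.1% of all genes called lower and 16.1% higher. There the median was −2.47 over the mitosis genes and 0.00 over all genes, and 53 genes had all 3 CD8αα libraries below all 3 CD8αβ IEL libraries, a pattern found in 20.5% of all genes. Lower in both comparisons, which share no library, were 50 mitosis genes and 8.49% of all genes. The genes not called in CD4 hosts were Pttg1, Cenpa, Kif15 and Ckap2, and the one not called in CD8αβ hosts was Pttg1.

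**Figure D1:**
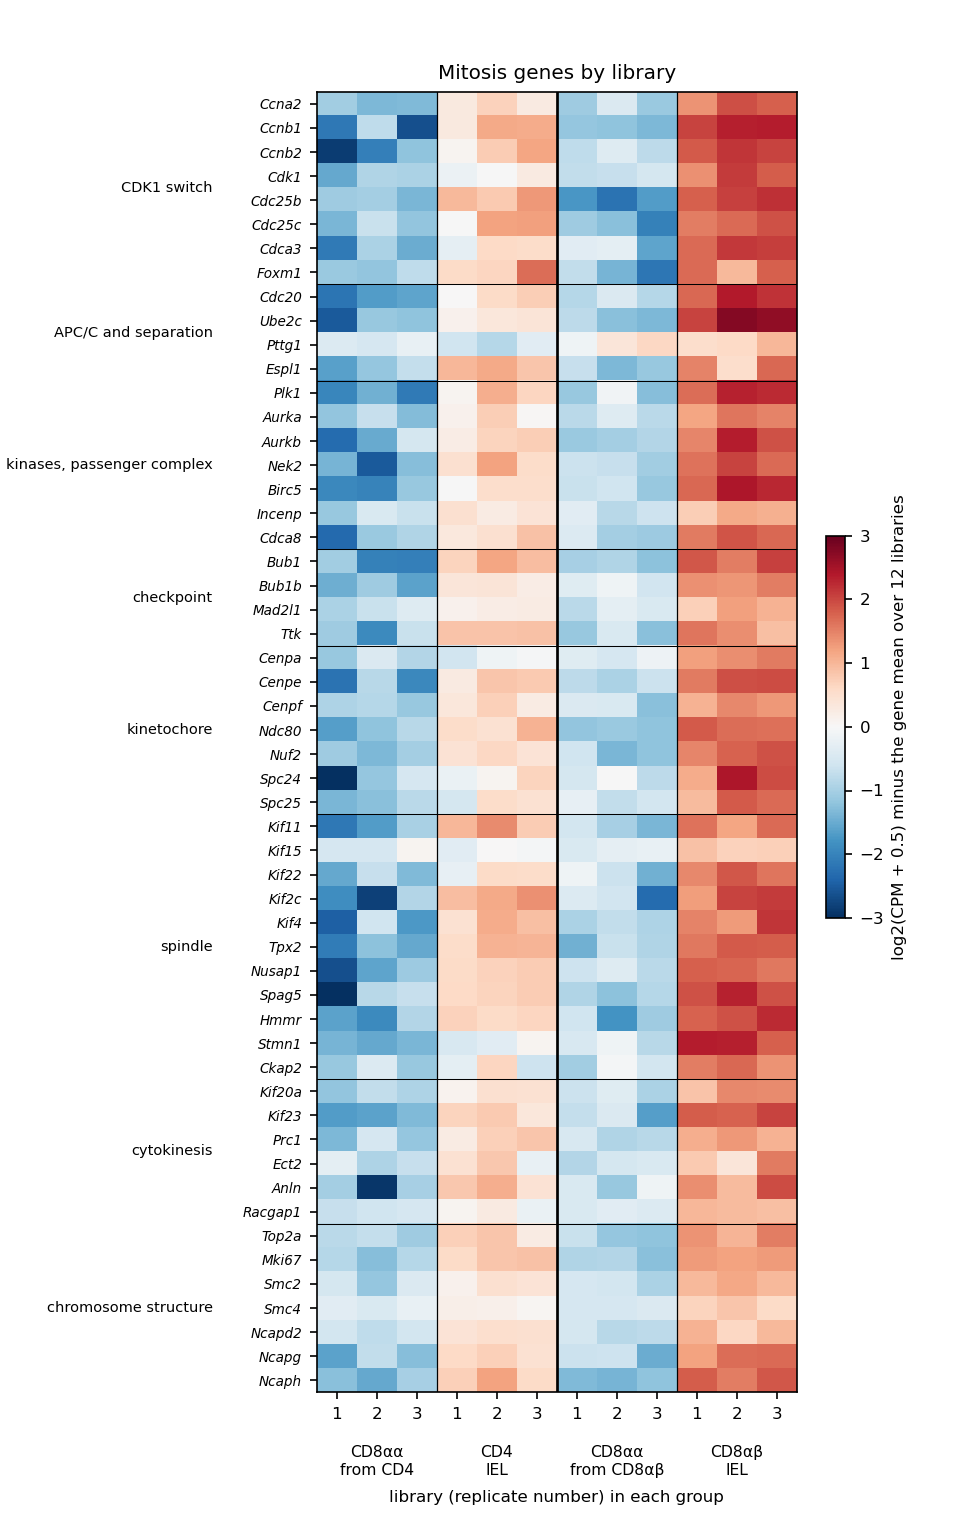
Heat map of the 54 mitosis genes (rows, grouped by role) in the 12 libraries (columns, by group and replicate number). Colour gives log2(CPM + 0.5) minus the mean of that gene over the 12 libraries; the CD8αα columns are blue in nearly all rows, the CD8αβ IEL columns are red, and Pttg1 has the flattest row among its neighbours.

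The difference was also present in the libraries with Y-linked transcripts alone. The 54-gene sum was 962 to 1319 CPM in the 4 CD8αα libraries with Xist and 1136 to 1344 CPM in the 2 with Y-linked transcripts, against 2509 to 5892 CPM in the companion IEL. With the 4 Xist libraries left out, which leaves 1 library in each CD8αα group, assumed to vary like the other groups, 35 genes were called lower in CD8αα from CD4 (9.56% of all genes were called in either direction) and 49 in CD8αα from CD8αβ (10.6%). All of these were among the 50 and 53 called before. The remaining CD8αα from CD4 library was below all 3 CD4 IEL libraries for 52 of 54 genes (33.3% of all genes), and the remaining CD8αα from CD8αβ library was below all 3 CD8αβ IEL libraries for 54 of 54 (31.3% of all genes). For the calls lost, 15 in CD4 hosts and 4 in CD8αβ hosts, every log2 change kept its sign. It was 49.1 to 108% (median 78.4%) of its value over all libraries in the first group of genes and 77.6 to 95.4% in the second.

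Summed levels of markers of other cells differed between the same libraries. For the counts of markers called, the shares of all genes tested were 15.0% higher and 13.5% lower in CD4 hosts. In CD8αβ hosts they were 16.1% higher and 15.1% lower. The numbers of myeloid markers called higher in both kinds of host, and of epithelial markers in CD4 hosts, were near these shares. Summed over 16 markers of natural killer and innate lymphoid cells, levels were 38237 to 52773 CPM in CD8αα from CD4 against 3980.1 to 7309 in CD4 IEL, and 45193 to 54155 in CD8αα from CD8αβ against 5781 to 13163 in CD8αβ IEL. For these 16, 7 were called higher and 4 lower in each comparison, and Gzma, granzyme A, made up 88.9% of the sum in the CD8αα libraries of CD4 hosts and 87.8% in those of CD8αβ hosts. Epithelial markers (20 genes, 16 tested) summed to 766 to 1018 CPM in CD8αα from CD4 against 135 to 264 in CD4 IEL, with 3 called higher, and to 763 to 1319 in CD8αα from CD8αβ against 347 to 976 in CD8αβ IEL, with 5 called higher. In CD4 hosts all 16 were above 0 (median log2 change 1.06), as were 6489 of all 12622 genes tested. In CD8αβ hosts 10 of the 16 were nevertheless below 0 (median log2 change −0.18). Myeloid markers (15 genes, 12 tested) summed to 994 to 1221 CPM in CD8αα from CD4 against 87.5 to 196 in CD4 IEL, with 2 called higher. They summed to 563 to 747 in CD8αα from CD8αβ against 188 to 306 in CD8αβ IEL, with 2 called higher and 6 lower, and S100a8 and S100a9 were at 0 in every library. Itgax, the integrin CD11c, made up 75.2% of the sum in the CD8αα libraries of CD4 hosts and 64.9% in those of CD8αβ hosts, and the median of the 12 was −0.84 in CD4 hosts and −1.81 in CD8αβ hosts. B cell markers (7 genes, 2 tested) summed to 49.3 to 61.4 CPM in CD8αα from CD4 against 4.43 to 10.6 in CD4 IEL, and to 71.0 to 80.3 in CD8αα from CD8αβ against 17.9 to 39.4 in CD8αβ IEL, with 1 called higher in each, and Pax5 and Ebf1 were at 0 throughout. Stromal markers (8 genes, 5 tested) summed to 499 to 590.1 CPM in CD8αα from CD4 against 112 to 138 in CD4 IEL, with 1 called higher and 1 lower, and to 603 to 764 in CD8αα from CD8αβ against 22.4 to 39.1 in CD8αβ IEL, with 2 called higher, and Col3a1 and Pdgfra were at 0 throughout. Pecam1, the adhesion molecule CD31, made up 99.9% of the stromal sum in the CD8αα libraries of CD4 hosts and 97.8% in those of CD8αβ hosts, while 4 of the 5 were below 0 in CD4 hosts (median −1.73). The part of these cells in the levels of the mitosis genes was not tested.

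All 8 genes of the CDK1 switch fell in both comparisons, with medians of −2.15 in CD4 hosts and −2.81 in CD8αβ hosts. Ccnb1 (chromosome 13, 100778650 to 100786570 of mm10), the main cyclin partner of CDK1 at mitotic entry, was at 4.61, 12.8 and 3.12 CPM in CD8αα from CD4, against 26.9, 48.9 and 48.3 in CD4 IEL. In CD8αβ hosts Ccnb1 was at 9.62, 9.24 and 8.27 CPM in CD8αα from CD8αβ, against 90.9, 113 and 114 in CD8αβ IEL. In both comparisons even the highest CD8αα library lay below the lowest companion library. Ccnb1 fell by 2.55 ± 0.40 log2 units in CD4 hosts (edgeR adjusted p = 0.000279) and fell by 3.54 ± 0.40 in CD8αβ hosts (1.42e-05).

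Ccnb2, the second B-type cyclin, was at 3.75, 6.87 and 12.8 CPM in CD8αα from CD4, against 32.1, 51.9 and 68.8 in CD4 IEL. In CD8αβ hosts Ccnb2 was at 17.7, 22.8 and 17.3 CPM in CD8αα from CD8αβ, against 109, 135 and 126 in CD8αβ IEL. Replicate 1 was the lowest of the CD8αα from CD4 libraries and the lowest of the CD4 IEL ones, and no groups overlapped. Ccnb2 fell by 2.700 ± 0.36 log2 units in CD4 hosts (edgeR adjusted p = 8.01e-05) and fell by 2.68 ± 0.34 in CD8αβ hosts (4.62e-05). Ccna2, the cyclin of S phase and early mitosis, was at 32.6, 26.6 and 26.8 CPM in CD8αα from CD4, against 83.7, 109.9 and 82.00 in CD4 IEL. In CD8αβ hosts Ccna2 was at 32.5, 50.1 and 31.3 CPM in CD8αα from CD8αβ, against 174, 259.8 and 238 in CD8αβ IEL. All CD8αα libraries were below all companions, and CD8αβ IEL stood well above CD4 IEL. Ccna2 fell by 1.68 ± 0.22 log2 units in CD4 hosts (edgeR adjusted p = 6.60e-05) and fell by 2.56 ± 0.22 in CD8αβ hosts (1.40e-06). Cdk1, the kinase itself, was at 9.56, 15.00 and 14.7 CPM in CD8αα from CD4, against 25.2, 28.2 and 34.7 in CD4 IEL. In CD8αβ hosts Cdk1 was at 16.9, 17.6 and 19.8 CPM in CD8αα from CD8αβ, against 74.2, 123 and 103 in CD8αβ IEL. Neither CD8αα group overlapped with its companion in Cdk1, and CD4 IEL stood closer to the CD8αα libraries than CD8αβ IEL did. Cdk1 fell by 1.16 ± 0.23 log2 units in CD4 hosts (edgeR adjusted p = 0.00205) and fell by 2.47 ± 0.23 in CD8αβ hosts (2.88e-06).

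Cdc25b (chromosome 2, 131186949 to 131198497), the phosphatase that starts the activation of CDK1, was at 14.8, 15.3 and 12.01 CPM in CD8αα from CD4, against 62.3, 55.2 and 79.2 in CD4 IEL. In CD8αβ hosts Cdc25b was at 9.15, 6.48 and 9.53 CPM in CD8αα from CD8αβ, against 111, 132 and 146 in CD8αβ IEL. Its mean in CD8αα from CD8αβ was 6.47% of the CD8αβ IEL mean, the lowest such share of the 54 genes. Cdc25b fell by 2.22 ± 0.21 log2 units in CD4 hosts (edgeR adjusted p = 3.07e-06) and fell by 3.95 ± 0.22 in CD8αβ hosts (2.65e-08). Foxm1, the transcription factor that activates late cell cycle genes, was at 6.31, 5.95 and 8.11 CPM in CD8αα from CD4, against 21.2, 22.4 and 46.7 in CD4 IEL. In CD8αβ hosts Foxm1 was at 8.31, 5.098 and 2.76 CPM in CD8αα from CD8αβ, against 46.8, 28.4 and 50.7 in CD8αβ IEL. CD4 IEL replicate 3 was more than double the other CD4 IEL libraries, and all of them were above all CD8αα ones. Foxm1 fell by 2.15 ± 0.41 log2 units in CD4 hosts (edgeR adjusted p = 0.00144) and fell by 2.94 ± 0.42 in CD8αβ hosts (0.000108). Cdc25c, a related phosphatase, was the scarcest of the group, at 0.919 to 3.09 CPM in the CD8αα libraries. Cdc25c fell by 2.15 ± 0.45 log2 units in CD4 hosts (edgeR adjusted p = 0.00275) and fell by 3.42 ± 0.46 in CD8αβ hosts (7.37e-05). Cdca3, an adaptor that marks the CDK1 inhibitor Wee1 for destruction, had values of 4.095, 9.85 and 6.55 CPM in CD8αα from CD4, below all CD4 IEL libraries. Cdca3 fell by 1.83 ± 0.38 log2 units in CD4 hosts (edgeR adjusted p = 0.00282) and fell by 2.65 ± 0.38 in CD8αβ hosts (0.000112).

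Reads of Ccna2, Cdc25b and Cdc25c can be shared with Exosc9, Spef1 and Gm3550 on the other strand, since the handling of strand in counting is not stated in the sources. Over all libraries these had 5559, 198 and 230 reads. Foxm1 overlaps Tex52 on the same strand, where strand would not separate the reads. Without the 4 Xist libraries the calls of Cdk1, Cdc25c and Foxm1 in CD8αα from CD4 were lost (edgeR adjusted p = 0.131, 0.0689 and 0.0787), with log2 changes of −0.998, −2.33 and −1.89, against −1.16, −2.15 and −2.15 with them.

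**Figure D2:**
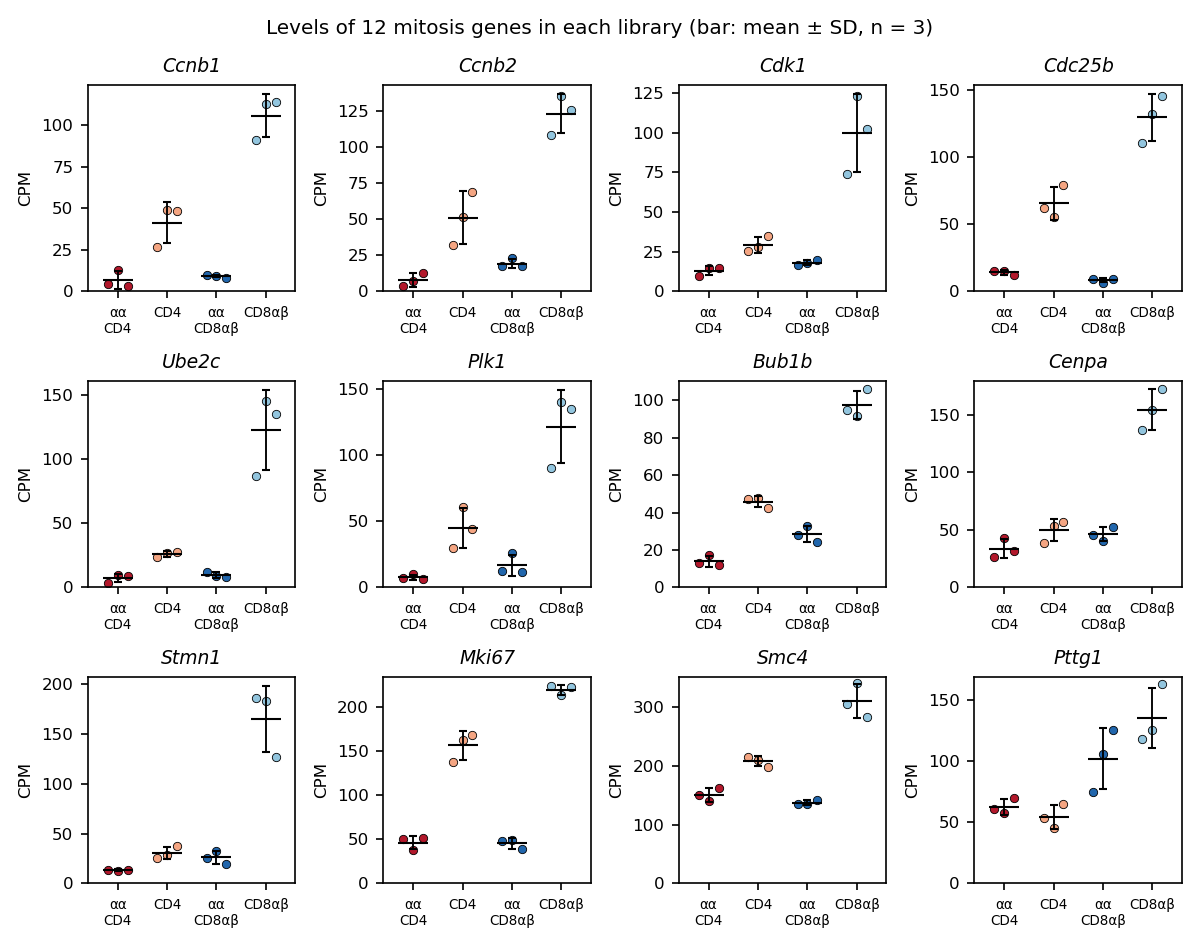
Levels in CPM of 12 mitosis genes in each library, by group. Points are libraries and bars the mean ± SD of 3; for Ccnb1, Ccnb2, Cdk1, Cdc25b, Ube2c, Plk1, Bub1b, Stmn1, Mki67 and Smc4 every CD8αα library lies below its companion group, whereas Pttg1 overlaps with it in both kinds of host and Cenpa in CD4 hosts.

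Of the 4 genes of the anaphase-promoting complex pathway and sister separation, 3 fell in each comparison, and Pttg1 did not pass the test in either. Cdc20, which activates the complex and selects its targets, was at 8.02, 11.6 and 12.5 CPM in CD8αα from CD4, against 38.8, 57.2 and 63.9 in CD4 IEL. In CD8αβ hosts Cdc20 was at 21.1, 28.3 and 21.01 CPM in CD8αα from CD8αβ, against 128, 199.7 and 173 in CD8αβ IEL. Every CD8αα from CD4 library was also below every CD8αα from CD8αβ library. Cdc20 fell by 2.31 ± 0.25 log2 units in CD4 hosts (edgeR adjusted p = 1.28e-05) and fell by 2.83 ± 0.24 in CD8αβ hosts (1.30e-06). Ube2c, the ubiquitin-conjugating enzyme that works with the complex, was at 3.24, 9.27 and 8.89 CPM in CD8αα from CD4, against 23.2, 26.99 and 27.8 in CD4 IEL. In CD8αβ hosts Ube2c was at 11.96, 8.497 and 7.92 CPM in CD8αα from CD8αβ, against 86.8, 145 and 135 in CD8αβ IEL. CD8αβ IEL libraries stood far above all others, and CD4 IEL varied little. Ube2c fell by 1.84 ± 0.32 log2 units in CD4 hosts (edgeR adjusted p = 0.000744) and fell by 3.69 ± 0.33 in CD8αβ hosts (1.71e-06). Espl1, separase, the protease that cuts the cohesin holding sister chromatids together, was in no CD8αα library above 7.94 CPM. Espl1 fell by 2.21 ± 0.35 log2 units in CD4 hosts (edgeR adjusted p = 0.000311) and fell by 2.45 ± 0.34 in CD8αβ hosts (0.000101). Cdc20 overlaps Elovl1 and Ube2c overlaps Tnnc2 on the other strand, where the handling of strand is again not known. Over all libraries Elovl1 had 12752 reads and Tnnc2 only 10.

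Pttg1 (chromosome 11, 43420250 to 43426251), securin, the inhibitor that holds separase in check until anaphase, went its own way. It was at 61.1, 57.2 and 69.7 CPM in CD8αα from CD4, against 53.7, 44.98 and 64.6 in CD4 IEL, with overlapping groups (log2 change 0.20 ± 0.21 SE, edgeR adjusted p = 0.509). In CD8αβ hosts Pttg1 was at 75.1, 106 and 125 CPM in CD8αα from CD8αβ, against 118, 125 and 163 in CD8αβ IEL. The highest of these CD8αα libraries exceeded the lowest CD8αβ IEL library (log2 change −0.41 ± 0.20 SE, edgeR adjusted p = 0.153). The mean of Pttg1 in CD8αα from CD4 was 115% of the CD4 IEL mean, the only such share above 100% among the 54 genes. In CD8αα from CD8αβ it was 75.4% of the CD8αβ IEL mean, the highest of the 54 shares. Per kilobase of exon, Pttg1 had the highest level of the 54 genes in CD8αα from CD4 (31.3 CPM per kb) and also in CD8αα from CD8αβ (51.1 CPM per kb), and the fourth highest in CD8αβ IEL (67.7 CPM per kb). It was the only mitosis gene whose mean was lowest in CD4 IEL.

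All 7 mitotic kinases and members of the chromosomal passenger complex fell in both comparisons, with medians of −1.93 in CD4 hosts and −2.64 in CD8αβ hosts. Plk1, a kinase of mitotic entry, spindle and cytokinesis, was at 6.83, 9.96 and 6.08 CPM in CD8αα from CD4, against 29.7, 60.5 and 44.4 in CD4 IEL. In CD8αβ hosts Plk1 was at 12.5, 25.8 and 11.3 CPM in CD8αα from CD8αβ, against 89.9, 140.2 and 135 in CD8αβ IEL. Replicate 2 was the highest library in all 4 groups. Plk1 fell by 2.54 ± 0.36 log2 units in CD4 hosts (edgeR adjusted p = 0.000136) and fell by 2.88 ± 0.35 in CD8αβ hosts (2.85e-05). Aurka, the kinase of the spindle poles, was at 9.56, 13.5 and 8.73 CPM in CD8αα from CD4, against 24.4, 37.4 and 22.9 in CD4 IEL. In CD8αβ hosts Aurka was at 12.5, 16.99 and 12.4 CPM in CD8αα from CD8αβ, against 51.2, 69.3 and 62.8 in CD8αβ IEL. Again replicate 2 was the highest in each group, and even so no CD8αα library reached its companions. Aurka fell by 1.405 ± 0.26 log2 units in CD4 hosts (edgeR adjusted p = 0.00103) and fell by 2.13 ± 0.25 in CD8αβ hosts (2.54e-05).

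Aurkb, the kinase of the passenger complex that corrects wrong attachments, was at 4.27, 7.79 and 15.8 CPM in CD8αα from CD4, against 26.7, 36.5 and 38.9 in CD4 IEL. In CD8αβ hosts Aurkb was at 10.3, 11.2 and 12.3 CPM in CD8αα from CD8αβ, against 63.9, 119 and 87.4 in CD8αβ IEL. The CD8αα from CD4 libraries spread widely, while those of the other CD8αα group were close together. Aurkb fell by 1.87 ± 0.37 log2 units in CD4 hosts (edgeR adjusted p = 0.00169) and fell by 3.01 ± 0.37 in CD8αβ hosts (3.12e-05). Birc5, survivin, the subunit that brings this complex to chromosomes, was at 5.802, 5.496 and 10.4 CPM in CD8αα from CD4, against 23.2, 33.8 and 34.1 in CD4 IEL. In CD8αβ hosts Birc5 was at 14.7, 15.3 and 10.4 CPM in CD8αα from CD8αβ, against 78.8, 127 and 114 in CD8αβ IEL. All CD8αα libraries were below the lowest companion. Birc5 fell by 2.07 ± 0.29 log2 units in CD4 hosts (edgeR adjusted p = 0.000118) and fell by 2.98 ± 0.28 in CD8αβ hosts (3.00e-06). Incenp, the scaffold of the complex, had the smallest falls of the 7, with log2 changes of −1.12 in CD4 hosts and −1.59 in CD8αβ hosts. For Cdca8, borealin, these were −1.93 and −2.57, and for Nek2, a kinase that separates centrosomes, −2.55 and −2.64. Cdca8 overlaps 9930104L06Rik on the other strand. Without the 4 Xist libraries Aurkb in CD8αα from CD4 no longer passed (log2 change −1.11 without the 4, against −1.87 with them, edgeR adjusted p = 0.134).

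The 4 spindle checkpoint genes fell in both comparisons, Bub1 most and Mad2l1 least. Bub1, the kinase that recruits checkpoint proteins to kinetochores, was at 7.51, 3.55 and 3.43 CPM in CD8αα from CD4, against 25.4, 36.9 and 30.7 in CD4 IEL. In CD8αβ hosts Bub1 was at 7.66, 8.28 and 6.55 CPM in CD8αα from CD8αβ, against 59.4, 47.3 and 67.6 in CD8αβ IEL. The highest CD8αα library was far below the lowest companion. Bub1 fell by 2.698 ± 0.30 log2 units in CD4 hosts (edgeR adjusted p = 1.69e-05) and fell by 2.95 ± 0.29 in CD8αβ hosts (4.56e-06). Bub1b, BubR1, which binds and inhibits CDC20, was at 12.97, 17.2 and 11.7 CPM in CD8αα from CD4, against 47.1, 47.9 and 42.5 in CD4 IEL. In CD8αβ hosts Bub1b was at 28.2, 33.03 and 24.3 CPM in CD8αα from CD8αβ, against 94.7, 91.8 and 106 in CD8αβ IEL. Its libraries stayed close together within each group, and all 4 groups were apart. Bub1b fell by 1.71 ± 0.18 log2 units in CD4 hosts (edgeR adjusted p = 1.27e-05) and fell by 1.77 ± 0.18 in CD8αβ hosts (5.57e-06).

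Mad2l1, MAD2, which together with BubR1 holds CDC20, was at 22.2, 27.02 and 32.6 CPM in CD8αα from CD4, against 46.7, 50.5 and 51.2 in CD4 IEL. In CD8αβ hosts Mad2l1 was at 24.2, 35.1 and 31.1 CPM in CD8αα from CD8αβ, against 70.5, 102 and 89.00 in CD8αβ IEL. The lowest companion was above the highest CD8αα library in both kinds of host. Mad2l1 fell by 0.86 ± 0.20 log2 units in CD4 hosts (edgeR adjusted p = 0.00533) and fell by 1.53 ± 0.20 in CD8αβ hosts (5.10e-05). Ttk, the MPS1 kinase that starts checkpoint signalling, was at most at 4.99 CPM in CD8αα libraries. Ttk fell by 2.19 ± 0.41 log2 units in CD4 hosts (edgeR adjusted p = 0.00116) and fell by 2.39 ± 0.40 in CD8αβ hosts (0.000406). Mad2l1 and Ttk lost their calls in CD8αα from CD4 without the 4 Xist libraries (edgeR adjusted p = 0.243 and 0.0681), with log2 changes of −0.60 and −1.65, against −0.86 and −2.19 with them.

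Of the 7 kinetochore genes, 6 fell in CD4 hosts and 7 in CD8αβ hosts. Cenpa (chromosome 5, 30666777 to 30674827), the histone H3 variant that marks centromeres, was at 26.3, 42.7 and 31.5 CPM in CD8αα from CD4, against 38.8, 53.1 and 56.9 in CD4 IEL. In CD8αβ hosts Cenpa was at 45.1, 40.6 and 52.5 CPM in CD8αα from CD8αβ, against 136, 154 and 172 in CD8αβ IEL. The groups overlapped in CD4 hosts, where 1 CD8αα library exceeded the lowest CD4 IEL library, and were far apart in CD8αβ hosts. In CD4 hosts Cenpa did not pass (log2 change −0.56 ± 0.20 SE, edgeR adjusted p = 0.0564), and in CD8αβ hosts it fell (log2 change −1.74 ± 0.20 SE, edgeR adjusted p = 2.25e-05). Cenpe, a kinesin that moves chromosomes to the spindle equator, was at 3.92, 11.1 and 4.83 CPM in CD8αα from CD4, against 24.3, 36.2 and 34.7 in CD4 IEL. In CD8αβ hosts Cenpe was at 11.4, 10.1 and 12.6 CPM in CD8αα from CD8αβ, against 60.4, 77.98 and 79.6 in CD8αβ IEL. CD8αα from CD4 replicate 2 was more than double its 2 fellow replicates and still below every CD4 IEL library. Cenpe fell by 2.23 ± 0.33 log2 units in CD4 hosts (edgeR adjusted p = 0.000172) and fell by 2.67 ± 0.32 in CD8αβ hosts (2.45e-05). Cenpf, a large protein of the outer kinetochore, was at 8.19, 8.702 and 7.02 CPM in CD8αα from CD4, against 20.3, 26.5 and 19.2 in CD4 IEL. In CD8αβ hosts Cenpf was at 11.7, 11.6 and 6.43 CPM in CD8αα from CD8αβ, against 33.4, 44.6 and 39.98 in CD8αβ IEL. Neither CD8αα group overlapped with its companion. Cenpf fell by 1.46 ± 0.27 log2 units in CD4 hosts (edgeR adjusted p = 0.00104) and fell by 1.99 ± 0.26 in CD8αβ hosts (6.17e-05).

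The 4 subunits of the NDC80 complex, which grips the microtubule end, fell together. In CD8αα from CD4 the log2 changes were −1.97 for Ndc80, −1.74 for Nuf2, −1.504 for Spc24 and −1.400 for Spc25. In CD8αα from CD8αβ they were −2.99, −2.85, −2.38 and −2.08. Of these 4, Spc24 varied most, at 1.71, 7.67 and 12.5 CPM in CD8αα from CD4. Its call there (edgeR adjusted p = 0.0394) was lost without CD4 IEL replicate 2 or 3 or without CD8αα from CD4 replicate 1 or 2 (edgeR adjusted p = 0.0629, 0.133, 0.087 and 0.0951). Cenpa in CD4 hosts, not called by the edgeR test of all 12 libraries, was called by DESeq2 (adjusted p = 0.0345), with library totals (edgeR adjusted p = 0.0275), with replicate numbers as a block (0.0351), and without CD4 IEL replicate 1 or CD8αα from CD4 replicate 2 (0.024 and 0.0193). Without the 4 Xist libraries, Spc24 and Spc25 no longer passed in CD8αα from CD4 (edgeR adjusted p = 0.457 and 0.256), nor Spc24 in CD8αα from CD8αβ (0.0541). The log2 changes were then −0.74 and −1.07 in CD4 hosts and −1.98 in CD8αβ hosts.

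**Figure D3:**
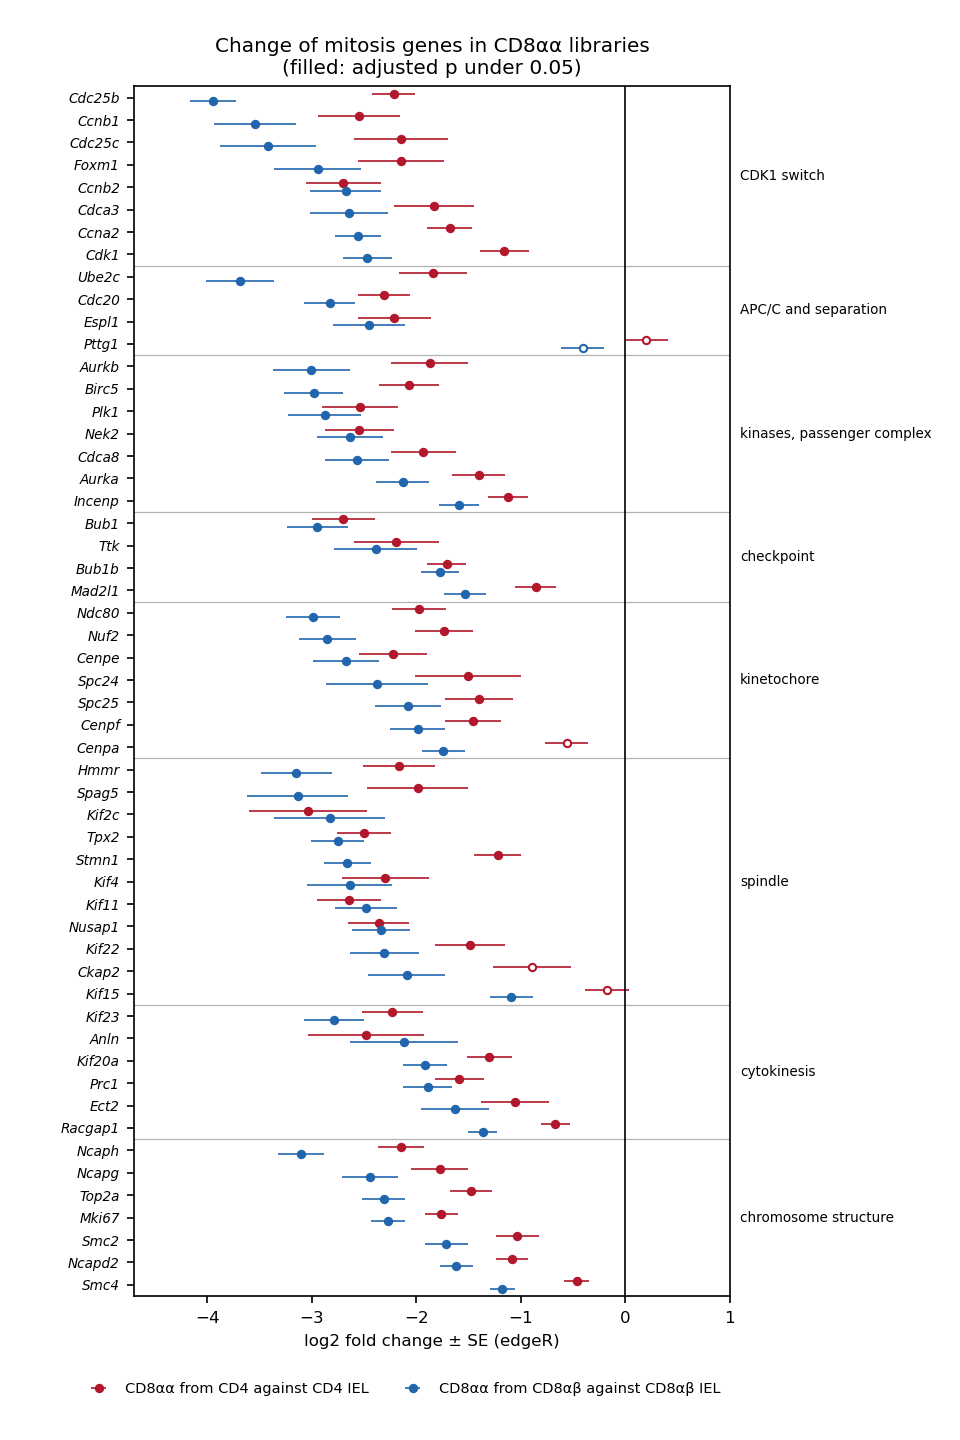
Change of each mitosis gene by edgeR, as log2 fold change ± SE, in CD8αα from CD4 against CD4 IEL (red) and in CD8αα from CD8αβ against CD8αβ IEL (blue), ordered within each role by the second. Filled points passed the adjusted p threshold of 0.05; the open points are Pttg1 in both comparisons and Cenpa, Ckap2 and Kif15 in the first.

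Among 11 spindle and microtubule genes, 9 fell in CD4 hosts and 11 in CD8αβ hosts. Kif11, the kinesin that pushes spindle poles apart, was at 9.56, 13.4 and 21.8 CPM in CD8αα from CD4, against 87.7, 118 and 74.7 in CD4 IEL. In CD8αβ hosts Kif11 was at 29.5, 21.7 and 16.5 CPM in CD8αα from CD8αβ, against 135, 100.3 and 144 in CD8αβ IEL. CD4 IEL and CD8αβ IEL overlapped here, which few mitosis genes showed. Kif11 fell by 2.65 ± 0.30 log2 units in CD4 hosts (edgeR adjusted p = 2.19e-05) and fell by 2.48 ± 0.30 in CD8αβ hosts (2.57e-05). Tpx2, which activates Aurora A and seeds spindle microtubules, was at 7.34, 13.9 and 11.1 CPM in CD8αα from CD4, against 48.6, 68.3 and 67.9 in CD4 IEL. In CD8αβ hosts Tpx2 was at 11.9, 20.7 and 17.5 CPM in CD8αα from CD8αβ, against 99.6, 119 and 118 in CD8αβ IEL. All CD8αα libraries were well below all companions. Tpx2 fell by 2.503 ± 0.26 log2 units in CD4 hosts (edgeR adjusted p = 8.33e-06) and fell by 2.75 ± 0.25 in CD8αβ hosts (2.48e-06).

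Kif15 (chromosome 9, 122951081 to 123018725), a kinesin that can maintain the spindle in place of Kif11, was at 17.2, 17.2 and 26.2 CPM in CD8αα from CD4, against 19.4, 25.03 and 23.9 in CD4 IEL. In CD8αβ hosts Kif15 was at 17.9, 20.5 and 21.1 CPM in CD8αα from CD8αβ, against 45.7, 39.99 and 40.96 in CD8αβ IEL. In CD4 hosts 1 CD8αα library was the highest of the 6, whereas in CD8αβ hosts the groups did not overlap. Kif15 did not pass in CD4 hosts (log2 change −0.17 ± 0.21 SE, edgeR adjusted p = 0.587). In CD8αβ hosts it had the smallest called fall (log2 change −1.09 ± 0.21 SE, edgeR adjusted p = 0.00127). Ckap2, a microtubule stabiliser, was at 5.802, 9.96 and 5.77 CPM in CD8αα from CD4, against 10.8, 20.99 and 8.53 in CD4 IEL. In CD8αβ hosts Ckap2 was at 6.17, 12.9 and 8.96 CPM in CD8αα from CD8αβ, against 39.6, 44.8 and 34.7 in CD8αβ IEL. It overlapped between the groups of CD4 hosts (log2 change −0.89 ± 0.37 SE, edgeR adjusted p = 0.0933) and not between those of CD8αβ hosts (log2 change −2.09 ± 0.37 SE, edgeR adjusted p = 0.000668).

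Stmn1 (chromosome 4, 134468320 to 134473843), stathmin, which frees tubulin from microtubules until it is phosphorylated in mitosis, was at 13.5, 12.1 and 13.7 CPM in CD8αα from CD4, against 25.8, 28.2 and 37.9 in CD4 IEL. In CD8αβ hosts Stmn1 was at 25.6, 32.9 and 19.9 CPM in CD8αα from CD8αβ, against 186, 183 and 127 in CD8αβ IEL. CD8αβ IEL stood apart from the 3 other groups, whose highest library was at 37.9 CPM. Stmn1 fell by 1.22 ± 0.23 log2 units in CD4 hosts (edgeR adjusted p = 0.00124) and fell by 2.66 ± 0.23 in CD8αβ hosts (1.15e-06). Kif2c, a kinesin that takes microtubules apart, had the largest fall of the 54 genes in CD4 hosts. Its log2 change was −3.04 there and −2.83 in CD8αβ hosts, with 0.916 CPM in the lowest CD8αα library. Kif4, a kinesin on chromosome arms, changed by −2.296 in CD4 hosts and −2.64 in CD8αβ hosts. For Kif22, another such kinesin, the changes were −1.49 and −2.31, and for Nusap1, which bundles microtubules near chromosomes, −2.36 and −2.34. For Spag5, astrin, a spindle and kinetochore protein, they were −1.99 and −3.14. Spag5 varied widely in CD8αα from CD4, at 0.683, 8.01 and 8.89 CPM, with 4 reads in the lowest library. Hmmr, a spindle pole protein and hyaluronan receptor, changed by −2.16 and −3.15. All 6 genes from Kif2c on were called in both comparisons. Kif4 and Nusap1 overlap Pdzd11 and Oip5 on the other strand. The call of Ckap2 in CD4 hosts was gained without CD4 IEL replicate 3 (edgeR adjusted p = 0.0462) and under the model with replicate numbers as a block (0.0322). Without the 4 Xist libraries Kif15 in CD8αα from CD4 turned to 0.20 (edgeR adjusted p = 0.732), the call of Stmn1 there was lost (0.074), and so were those of Kif15 and Ckap2 in CD8αα from CD8αβ (0.0661 and 0.0855). Stmn1 was then at −1.15 in CD4 hosts, and Kif15 and Ckap2 at −1.04 and −1.62 in CD8αβ hosts.

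All 6 cytokinesis genes fell in both comparisons. Kif20a, a kinesin that carries the passenger complex to the spindle midzone, was at 20.3, 27.9 and 24.5 CPM in CD8αα from CD4, against 50.6, 64.9 and 64.5 in CD4 IEL. In CD8αβ hosts Kif20a was at 29.8, 36.01 and 23.8 CPM in CD8αα from CD8αβ, against 85.3, 128 and 126 in CD8αβ IEL. The CD8αα libraries of both kinds of host shared a range, below all companions. Kif20a fell by 1.302 ± 0.21 log2 units in CD4 hosts (edgeR adjusted p = 0.000447) and fell by 1.92 ± 0.21 in CD8αβ hosts (1.36e-05). Anln, anillin, the scaffold of the contractile ring, was at 3.07, 0.458 and 3.12 CPM in CD8αα from CD4, against 12.2, 14.7 and 9.28 in CD4 IEL. In CD8αβ hosts Anln was at 4.76, 2.76 and 6.09 CPM in CD8αα from CD8αβ, against 18.6, 13.4 and 27.3 in CD8αβ IEL. Anln was the scarcest gene per kilobase of exon, at 2.18 CPM per kb in CD8αβ IEL, and its lowest CD8αα library held 4 reads. Anln fell by 2.48 ± 0.56 log2 units in CD4 hosts (edgeR adjusted p = 0.00425) and fell by 2.12 ± 0.52 in CD8αβ hosts (0.00666).

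Racgap1 and Kif23 together form centralspindlin at the midzone. Racgap1 was at 83.4, 88.6 and 95.3 CPM in CD8αα from CD4, against 144, 163 and 118 in CD4 IEL. In CD8αβ hosts Racgap1 was at 97.8, 106 and 101 CPM in CD8αα from CD8αβ, against 271, 259 and 254 in CD8αβ IEL. Its libraries agreed closely within the CD8αα groups, with no overlap with the companions. Racgap1 fell by 0.67 ± 0.14 log2 units in CD4 hosts (edgeR adjusted p = 0.00227) and fell by 1.36 ± 0.14 in CD8αβ hosts (5.38e-06). Kif23 fell by 2.23 ± 0.30 log2 units in CD4 hosts (edgeR adjusted p = 7.54e-05) and fell by 2.79 ± 0.29 in CD8αβ hosts (6.61e-06). Prc1, which bundles midzone microtubules, had log2 changes of −1.59 in CD4 hosts and −1.89 in CD8αβ hosts. Ect2, the activator of RhoA that starts furrowing, changed by −1.06 in CD4 hosts (edgeR adjusted p = 0.0271) and −1.63 in CD8αβ hosts (0.00175). The call in CD4 hosts was lost without CD4 IEL replicate 1 or 2 or CD8αα from CD4 replicate 2 or 3 (edgeR adjusted p = 0.0625, 0.113, 0.106 and 0.0834). Without the 4 Xist libraries Ect2 (0.254), Anln (0.0787) and Racgap1 (0.195) no longer passed in CD8αα from CD4, nor Ect2 in CD8αα from CD8αβ (0.121). Their log2 changes were then −1.13, −1.95 and −0.57 in CD4 hosts, against −1.06, −2.48 and −0.67 over all libraries, and −1.54 for Ect2 in CD8αβ hosts. Kif20a and Prc1 overlap Cdc23 and Rccd1 on the other strand.

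The 7 genes of chromosome structure fell in both comparisons, and the condensin subunit Smc4 changed least of them in each. Top2a, the topoisomerase that untangles sister DNA, was at 87.4, 92.5 and 72.5 CPM in CD8αα from CD4, against 250.2, 271 and 181 in CD4 IEL. In CD8αβ hosts Top2a was at 95.9, 67.8 and 65.7 CPM in CD8αα from CD8αβ, against 391, 309 and 442 in CD8αβ IEL. Replicate 3 was lowest in CD4 IEL and highest in CD8αβ IEL, and all companions were above all CD8αα libraries. Top2a fell by 1.48 ± 0.20 log2 units in CD4 hosts (edgeR adjusted p = 9.80e-05) and fell by 2.31 ± 0.21 in CD8αβ hosts (1.84e-06). Mki67, Ki-67, the coat of mitotic chromosomes and the common marker of cycling cells, was at 50.2, 37.6 and 50.8 CPM in CD8αα from CD4, against 138, 163 and 168 in CD4 IEL. In CD8αβ hosts Mki67 was at 48.5, 49.3 and 38.5 CPM in CD8αα from CD8αβ, against 223, 213 and 222 in CD8αβ IEL. The CD8αα groups covered nearly the same range, and every companion library was at 138 CPM or more. Mki67 fell by 1.76 ± 0.16 log2 units in CD4 hosts (edgeR adjusted p = 2.59e-06) and fell by 2.27 ± 0.16 in CD8αβ hosts (2.41e-07).

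Smc4, a core ATPase of both condensins, was at 150.2, 139 and 162 CPM in CD8αα from CD4, against 215, 211 and 198 in CD4 IEL. In CD8αβ hosts Smc4 was at 135, 134 and 142 CPM in CD8αα from CD8αβ, against 305, 341 and 283 in CD8αβ IEL. Its libraries were close together in every group, and both CD8αα groups were apart from their companions. Smc4 fell by 0.47 ± 0.12 log2 units in CD4 hosts (edgeR adjusted p = 0.00922) and fell by 1.18 ± 0.12 in CD8αβ hosts (5.72e-06). Its partner Smc2 had log2 changes of −1.03 in CD4 hosts and −1.71 in CD8αβ hosts. Of the condensin I subunits, Ncaph, the clasp of the ring, was at −2.15 and −3.104, Ncapg at −1.78 and −2.44, and Ncapd2 at −1.08 and −1.62. Ncapg overlaps Lcorl on the other strand. Without the 4 Xist libraries Smc2 and Smc4 did not pass in CD8αα from CD4 (edgeR adjusted p = 0.0961 and 0.353), with log2 changes of −0.78 and −0.36.

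Whether the fall differed between the kinds of host was tested as the change in CD4 hosts minus the change in CD8αβ hosts. This difference was above 0, meaning a smaller fall in CD4 hosts, for 49 of 54 genes, and it was called for 6, all above 0, where 1.20% of all genes tested were called above 0 and 1.35% below. Its median was 0.68 on the log2 scale over the mitosis genes and 0.00 over all genes. Cdc25b differed by 1.73 ± 0.28 SE, edgeR adjusted p = 0.0054, Ube2c by 1.84 ± 0.44 SE, edgeR adjusted p = 0.0449, and Stmn1 by 1.44 ± 0.31 SE, edgeR adjusted p = 0.0291. For Cdk1 the difference was 1.31 ± 0.32 SE, edgeR adjusted p = 0.0493, for Cenpa 1.18 ± 0.29 SE, edgeR adjusted p = 0.0465, and for Smc4 0.71 ± 0.17 SE, edgeR adjusted p = 0.0407. Ccnb2, Nusap1 and Bub1b were near 0, at −0.02, −0.02 and 0.06 (edgeR adjusted p = 0.997, 0.994 and 0.937).

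The 6 genes shared a lower companion level in CD4 IEL than in CD8αβ IEL, which was called for each of them, while between the CD8αα groups Stmn1 alone was called. The companion difference enters the tested difference itself, and it was called for 44 of the 54 genes, so its call is not particular to the 6. In size, Stmn1, Ube2c and Cdk1 were among the largest companion differences of the 54 genes. Smc4 differed less, with means of 208 CPM in CD4 IEL and 310 CPM in CD8αβ IEL. The part of the companion difference in the 6 calls was not tested. Cdk1, for one, averaged 13.1 ± 3.05 CPM in CD8αα from CD4 and 29.3 ± 4.88 in CD4 IEL, against 18.1 ± 1.48 in CD8αα from CD8αβ and 100.05 ± 24.6 in CD8αβ IEL (SD, n = 3). Cdc25b averaged 14.1 ± 1.799 CPM in the CD8αα libraries of CD4 hosts and 8.39 ± 1.66 in those of CD8αβ hosts, and all 3 libraries of the first lay above all 3 of the second. Among the 6, only Cdc25b kept its call when any 1 library was left out. Without CD8αα from CD4 replicate 2 the adjusted p was 0.123 for Cdk1, 0.117 for Cenpa, 0.0629 for Smc4, 0.0601 for Stmn1 and 0.13 for Ube2c. The number of called genes was 1 to 5 over the 12 such fits, with the lowest number without replicate 1 or 2 of CD4 IEL, 2 of CD8αβ IEL, 2 or 3 of CD8αα from CD4, or 1 or 3 of CD8αα from CD8αβ. With replicate numbers as a block, Ube2c and Smc4 were not called (edgeR adjusted p = 0.0559 and 0.0529). The number was 0 without the 4 Xist libraries, which leave 1 library in each CD8αα group, with Cdc25b at an adjusted p of 0.274. The differences were then 1.87 for Cdc25b, 2.296 for Ube2c, 1.17 for Stmn1, 1.503 for Cdk1, 1.27 for Cenpa and 0.85 for Smc4, all above 0.

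**Figure D4:**
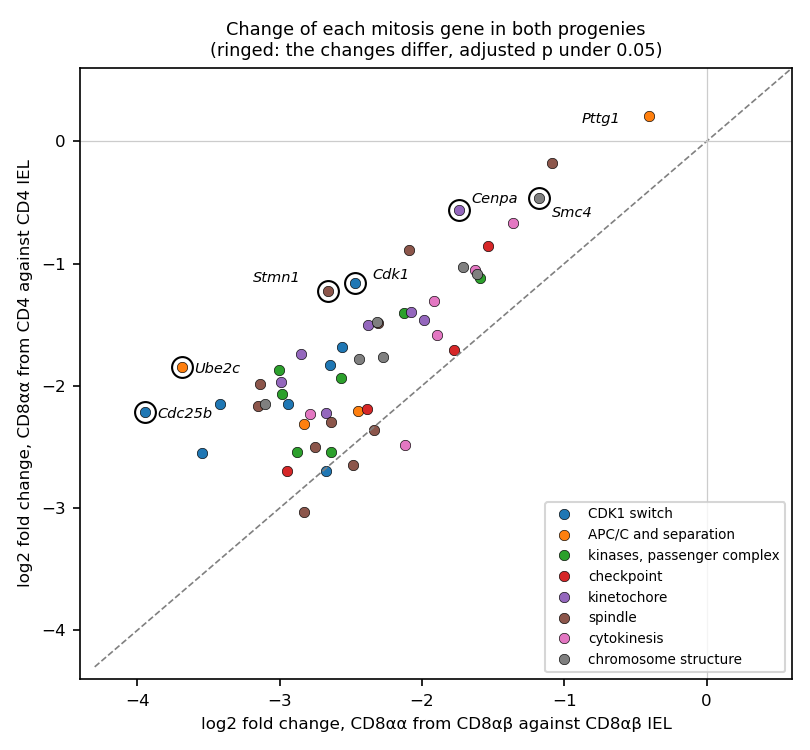
Each mitosis gene by its log2 fold change in CD8αα from CD8αβ against CD8αβ IEL (horizontal) and in CD8αα from CD4 against CD4 IEL (vertical), coloured by role; the dashed line marks equal change. Of the 54 points 49 lie above the line, and rings mark the 6 genes whose difference passed edgeR's test.

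Few mitosis genes were called between the CD8αα groups. The sum over the 54 genes in CD8αα from CD4 was 82.2% of that in CD8αα from CD8αβ, and with libraries scaled by their totals alone it was 87.3%. By edgeR's test 3 genes were lower and 0 higher in CD8αα from CD4, where 2.46% of all genes were called lower and 1.87% higher. Of the 54 estimates 45 were below 0 (median −0.39). The genes were Cdc20 (log2 change −1.13 ± 0.25 SE, edgeR adjusted p = 0.0232), Bub1b (−1.03 ± 0.18 SE, edgeR adjusted p = 0.00771) and Stmn1 (−0.997 ± 0.23 SE, edgeR adjusted p = 0.0274). Their values, given above, did not overlap between the CD8αα groups. In all 12 genes had every CD8αα from CD4 library below every CD8αα from CD8αβ library (16.7% of all genes did), among them Ccnb2 (−1.301, edgeR adjusted p = 0.0573), Pttg1 (−0.70, 0.0741), Plk1 (−1.100, 0.107) and Nusap1 (−1.06, 0.055), none of which passed. Cdc25b alone had the opposite pattern (0.75, edgeR adjusted p = 0.0642), found in 12.2% of all genes. The 7 chromosome structure genes ranged from −0.29 to 0.14. The 3 calls depended on single libraries. Without CD8αα from CD4 replicate 1 the count was 0 (edgeR adjusted p = 0.0511 for Bub1b, 0.129 for Cdc20 and 0.11 for Stmn1; 166 of all genes were then called), with log2 changes of −0.95, −0.94 and −0.993. Without CD8αα from CD8αβ replicate 2 the count was 1, and without CD8αα from CD4 replicate 3 it was 5. It was also 0 without the 4 Xist libraries, whereas DESeq2 called 8 (7 lower and 1 higher).

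Most mitosis genes were called between the companion IEL. The sum in CD4 IEL was 49.6% of that in CD8αβ IEL, and all 54 estimates were below 0 (median −1.03, against 0.01 over all genes). By edgeR's test 44 genes were called lower and 0 higher, with 16.0% of all genes called lower and 12.9% higher. For 48 genes every CD4 IEL library was below every CD8αβ IEL library (21.5% of all genes). The largest differences were in Stmn1 (log2 change −2.44 ± 0.22 SE, edgeR adjusted p = 2.82e-05), Ube2c (−2.23 ± 0.30 SE, edgeR adjusted p = 0.000245), Birc5 (−1.82 ± 0.27 SE, edgeR adjusted p = 0.000383) and Cdk1 (−1.77 ± 0.23 SE, edgeR adjusted p = 0.000166). Pttg1 was called here, with −1.32 (edgeR adjusted p = 0.000606). All 7 kinase and passenger genes, all 7 kinetochore genes and all 7 chromosome structure genes were lower in CD4 IEL, but only 3 of 6 cytokinesis genes. Mki67, with −0.49, and Ncapd2, with −0.43, had the smallest called differences. The count was 34 to 44 when 1 library was left out, and the call of 12 genes was lost in at least one such fit: Bub1, Ccnb1, Cenpf, Incenp, Mki67, Ncapd2, Nek2, Smc2, Spag5, Spc24, Top2a and Tpx2. Scaling by library totals moved the median of all genes in this comparison by over 0.1 to 0.13. It called 2309 genes higher and 1724 lower, against 1630 and 2025 with TMM scaling, and the median of the mitosis genes was then −0.91.

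The order of the group means was the same for most genes. For 44 of 54 the mean increased in the order CD8αα from CD4, CD8αα from CD8αβ, CD4 IEL and CD8αβ IEL, and for 9 the 2 CD8αα groups were exchanged. Pttg1 was the remaining gene. The step between the CD8αα groups was called for 3 genes only, as given above, so their order is not resolved for the others. Within groups the median coefficient of variation of the 54 genes was 28.7% in CD8αα from CD4, 18.9% in CD4 IEL, 19.2% in CD8αα from CD8αβ and 15.5% in CD8αβ IEL. In CD8αα from CD4, replicate 1, the library with the fewest counts, had the highest level of the 3 for 3 genes and replicate 3 for 30. No gene was at 0 in any library, and the lowest count was 4 in CD8αα from CD4, 48 in CD4 IEL, 8 in CD8αα from CD8αβ and 83 in CD8αβ IEL. The 54 genes took 0.100 to 0.113% of all counts in CD8αα from CD4 and 0.268 to 0.328% in CD4 IEL, 0.113 to 0.128% in CD8αα from CD8αβ and 0.483 to 0.587% in CD8αβ IEL. Per kilobase of exon, the most abundant in CD8αβ IEL were Cdc20 (89.4 CPM per kb), Stmn1 (86.0), Ccnb2 (80.5), Pttg1 (67.7) and Smc4 (59.5).

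Other genes of the cell cycle were examined by list. Of all genes tested, 13.5% fell and 15.0% rose in CD8αα from CD4, and 15.1% fell and 16.1% rose in CD8αα from CD8αβ. These shares stand beside the counts of this paragraph and the next. In a list of 61 further mitosis genes, 35 fell and 1 rose in CD8αα from CD4 (median −1.19), and 48 fell and 1 rose in CD8αα from CD8αβ (median −1.92). The largest fall in CD4 hosts was that of Sgol1, shugoshin, which protects cohesin at centromeres: it had 5 reads in all CD8αα from CD4 libraries together and was at 0.512, 0.114 and 0.156 CPM in CD8αα from CD4, against 13.7, 16.8 and 10.8 in CD4 IEL (log2 change −5.75 ± 0.50 SE, edgeR adjusted p = 1.88e-06). Cdca2, a phosphatase targeting protein of anaphase chromosomes, rose there (log2 change 0.81 ± 0.19 SE, edgeR adjusted p = 0.00613), at 64.7, 60.8 and 66.1 CPM in CD8αα from CD4, against 33.7, 39.5 and 36.4 in CD4 IEL. In CD8αβ hosts Aspm, a spindle pole protein, had the largest fall, at 4.67, 1.81 and 0.919 CPM in CD8αα from CD8αβ, against 31.6, 30.6 and 41.1 in CD8αβ IEL (log2 change −3.77 ± 0.50 SE, edgeR adjusted p = 5.80e-05), and Zwint, a kinetochore protein, rose slightly (log2 change 0.42 ± 0.13 SE, edgeR adjusted p = 0.0194). Of 15 genes for the core of the anaphase-promoting complex and its enzyme Ube2s, 1 fell and 2 rose in CD8αα from CD4 (median 0.04), and 3 fell and 1 rose in CD8αα from CD8αβ (median −0.09). In CD4 hosts these were Anapc5 (−0.49) as the largest fall and Anapc13 (1.45) as the largest rise, and in CD8αβ hosts Ube2s (−1.28) and Anapc2 (0.41). The counts of this list were close to or below the shares of all genes.

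Of 24 genes of G1 and S phase, 15 fell and 2 rose in CD8αα from CD4 (median −0.70), and 19 fell and 1 rose in CD8αα from CD8αβ (median −1.46). Cdc6, which loads the replicative helicase, had the largest fall in both, at 6.31, 7.21 and 8.58 CPM in CD8αα from CD4, against 29.7, 42.6 and 55.1 in CD4 IEL. In CD8αβ hosts Cdc6 was at 15.3, 11.4 and 11.4 CPM in CD8αα from CD8αβ, against 53.7, 110.2 and 75.02 in CD8αβ IEL. Neither pair of groups overlapped. Cdc6 fell by 2.52 ± 0.30 log2 units in CD4 hosts (edgeR adjusted p = 3.22e-05) and fell by 2.65 ± 0.29 in CD8αβ hosts (1.28e-05). Ccnd2, the D-type cyclin that opens G1, went the other way. It was at 1222, 1009.5 and 1128 CPM in CD8αα from CD4, against 682, 729 and 885 in CD4 IEL (log2 change 0.55 ± 0.14 SE, edgeR adjusted p = 0.00877). In CD8αβ hosts Ccnd2 was at 2195, 2032 and 1895 CPM in CD8αα from CD8αβ, against 633, 841 and 764 in CD8αβ IEL. This was the largest rise of the list there (log2 change 1.45 ± 0.14 SE, edgeR adjusted p = 3.85e-06), and the groups did not overlap in either kind of host. The largest rise in CD4 hosts was that of Gins2, a helicase subunit (log2 change 0.70 ± 0.17 SE, edgeR adjusted p = 0.00652). Among 21 genes of the E2F, DREAM, B-MYB and NF-Y regulators, 6 fell and 0 rose in CD8αα from CD4 (median −0.55), and 10 fell and 1 rose in CD8αα from CD8αβ (median −0.67). The largest falls were those of 2 activators of the cycle, E2f2 in CD4 hosts and E2f3 in CD8αβ hosts. In CD4 hosts E2f2 was at 3.24, 1.49 and 3.899 CPM in CD8αα from CD4, against 22.3, 35.7 and 26.6 in CD4 IEL (log2 change −3.32 ± 0.39 SE, edgeR adjusted p = 2.91e-05). In CD8αβ hosts E2f3 was at 1.68, 1.27 and 1.49 CPM in CD8αα from CD8αβ, against 15.4, 13.6 and 22.4 in CD8αβ IEL. E2f3 thus had 12 to 18 reads in each of these CD8αα libraries (log2 change −3.51 ± 0.73 SE, edgeR adjusted p = 0.00225). Lin54, the DREAM subunit that binds the cell cycle homology region, rose in CD8αα from CD8αβ, at 63.1, 64.9 and 52.8 CPM in CD8αα from CD8αβ, against 23.1, 23.00 and 37.5 in CD8αβ IEL (log2 change 1.12 ± 0.24 SE, edgeR adjusted p = 0.00312). Of 14 tested brakes of the cycle, 4 fell and 1 rose in CD8αα from CD4 (median −0.14), and 3 fell and 1 rose in CD8αα from CD8αβ (median −0.11). Rises in this list were no more frequent than among all genes tested. Cdkn1a, the CDK inhibitor p21, had the largest fall in CD4 hosts (log2 change −1.94 ± 0.29 SE, edgeR adjusted p = 0.000235) and Gadd45b, a stress protein, in CD8αβ hosts (log2 change −1.502 ± 0.27 SE, edgeR adjusted p = 0.000733), while Gadd45a rose in both (1.01 and 0.86).

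**Figure D5:**
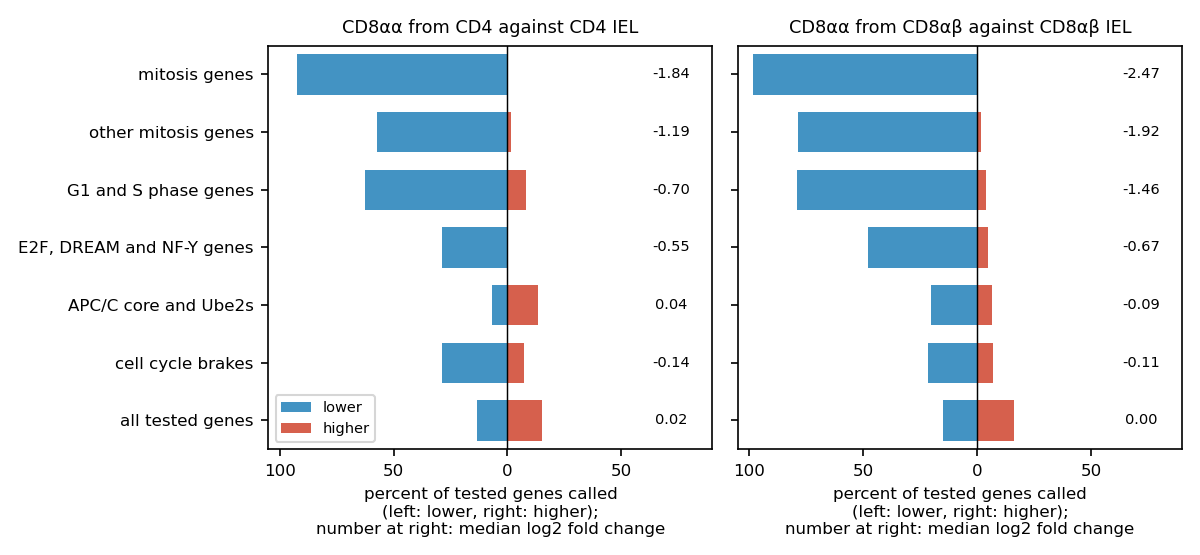
Percent of tested genes called lower (blue, to the left) and higher (red, to the right) in the 54 mitosis genes, 5 other lists and all 12622 tested genes, for CD8αα from CD4 against CD4 IEL and CD8αα from CD8αβ against CD8αβ IEL. The numbers give the median log2 fold change of each list; the mitosis genes have the lowest, at −1.84 and −2.47.

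Genes with TTTGAA in the promoter window did not have the larger median fall. The 33 mitosis genes with TTTGAA had a median log2 fold change of −1.78 in CD4 hosts and −2.39 in CD8αβ hosts, with 30 and 33 of them called lower. The 11 with a window but no TTTGAA had medians of −2.22 and −2.85, with 10 and 10 called lower. Among these 11, Ccnb1, Birc5 and Cenpe held TTTAAA, the other form searched. The split is thus by TTTGAA alone and does not set genes with the homology region against genes without it. Pttg1, whose window lies inside its gene, was the gene among these 11 that was not called in either comparison. Among the 33, the windows of Cdca3, Cdca8, Kif2c and Kif4 also lie inside their genes. Nuf2, Nusap1, Mad2l1 and Ncaph, whose windows also held none of the 3 motifs, were called lower in both.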

How the data were processed

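Bulk RNA-seq of 12 libraries of sorted mouse IEL, 3 in each of 4 groups named in the labels, was used. The authors deposited a table of unnormalised counts, whole numbers of reads for each gene, after alignment with HISAT2 2.1.0 to mm10, per the submitters' processing notes. How reads were counted (program, annotation, strand, multiple matches) is not given in the sources used here. Of rows with the same symbol the most abundant was kept, which dropped 66 rows with 0.0202% of reads. Gene coordinates are those of the deposited count table. Of the identifiers matched in GENCODE M21, 99.82% overlapped their row's position. Exon lengths and overlapping genes are from GENCODE M21.

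The symbols of the 54 genes and the other lists were chosen with earlier results of these data known. After filterByExpr (minimum count 10, minimum total 15) and TMM scaling, genes were tested with edgeR 4.0.16 in R 4.3.3 by the quasi-likelihood test, two-sided, with 1 mean per group over all 12 libraries. Benjamini-Hochberg adjustment ran over 12622 genes in each of 5 comparisons, 1 of them the difference between the 2 CD8αα changes. The SE is the log2 fold change over the square root of the F statistic. The script was tested on data simulated in 2 draws, with genes changed in the group CD8αα from CD4. Against CD4 IEL it called 36% and 42% of the genes changed by 1 log2 unit in either direction. Of those changed by 2 log2 units it called 73% and 81%, so a gene not called can still differ. A count of 3 equals 0.271 to 0.534 CPM at these depths, and this floor covers counting error only. Levels between genes are compared per kilobase of exon. Values are given by library for the main members of each role and for members not called in a comparison, and from each other list for the largest called rise and fall. Genes that were further named, such as Kif2c, Racgap1 and Cdca3, were chosen after their values were seen. Alternatives were DESeq2 1.42.0 size factors and test, scaling by totals, no filter, fits of 2 groups alone, replicate numbers as a block, each library left out, and the 4 CD8αα libraries with Xist left out. 1 marker gene of the B cell list is not reported here.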

Additional observations from a re-analysis of the deposited data

Results flagged for a closer look

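For 6 mitosis genes the change of the CD8αα libraries against their companions differed between the kinds of host, by edgeR's test of the difference itself (change in CD4 hosts minus change in CD8αβ hosts, log2 scale). The difference was 1.731 for Cdc25b, 1.844 for Ube2c and 1.439 for Stmn1. It was 1.31 for Cdk1, 1.184 for Cenpa and 0.7131 for Smc4. All 6 were above 0, the direction of 49 of the 54 genes, and in each of the 6 the estimate was a fall in both kinds of host. At an unadjusted p under 0.05 there were 20 of the 54 genes, in either direction, against 18.2% of all genes. With replicate numbers as a block, Ube2c and Smc4 were not called (edgeR adjusted p = 0.0559 and 0.0529). The split in sex-linked transcripts among the CD8αα libraries and their low T cell markers are present on both sides of this difference, and their part in it was not tested.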

How the results depend on the processing

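The count of mitosis genes called in CD8αα from CD4 against CD4 IEL was 50 to 52 under DESeq2, other scalings, no filter, fits of 2 groups alone and replicate block, 48 to 50 with 1 library left out, and 35 without the 4 Xist libraries. In CD8αα from CD8αβ against CD8αβ IEL it was 53 under all of these except the last, which gave 49. Between the CD8αα groups it was 3 at first, 5 without the low-count filter, 6 with the replicate block, 8 with DESeq2 (7 lower and 1 higher), 0 without the Xist libraries, and 0 to 5 with 1 library left out. Between CD4 IEL and CD8αβ IEL it was 41 to 44, and 34 to 44 with 1 library left out. The difference between the changes was called for 6 genes at first, 4 with the replicate block, 7 with DESeq2, 0 without the Xist libraries, and 1 to 5 with 1 library left out. The single reversal was Kif15 in CD8αα from CD4, with a log2 change of 0.2028 without the Xist libraries. Leaving out libraries also lowers the number of samples, and the cause of these changes was not tested. Replicate numbers were taken to pair libraries only where every same-numbered correlation was over 0.1, which no 2 groups met, and the second pair below missed it narrowly. The correlation of same-numbered deviations was −0.0156 to 0.0602 between CD8αα from CD4 and CD4 IEL, and 0.0978 to 0.326 between CD8αα from CD8αβ and CD8αβ IEL, where each of the 3 correlated best with its own number. Over all genes, DESeq2 called 1036 between the CD8αα groups against 547 by edgeR, and 817 against 323 for the difference. Scaling by library totals changed the calls between the CD8αα groups to 314 higher and 223 lower, against 236 and 311. With 4 reads in the lowest case, depth limits the values of scarce genes in CD8αα libraries. In CD8αα from CD4, 8 genes had a library under 20 reads: Anln, Cdc25c, Kif2c, Kif4, Spag5, Spc24, Ttk and Ube2c. In CD8αα from CD8αβ there were 2, Cdc25c and Kif2c.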

Other observations

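Of 135 tested genes in 5 other lists of the cell cycle, 10 (7.41%) were called between the 2 CD8αα groups, against 4.33% of all genes. By direction, 1.87% of all genes were higher and 2.46% lower in CD8αα from CD4. Of 61 further mitosis genes, 1 was higher and 1 lower in CD8αα from CD4 than in CD8αα from CD8αβ, the first being Ckap5, a microtubule polymerase (log2 change 0.83 ± 0.21 SE, edgeR adjusted p = 0.0427), and the second Sgol1 (log2 change −4.71 ± 0.51 SE, edgeR adjusted p = 0.000434). Sgol1 was at 0.512, 0.114 and 0.156 CPM in CD8αα from CD4 (5 reads in all), against 6.54, 6.904 and 6.78 CPM in CD8αα from CD8αβ. Of 24 genes of G1 and S phase, 3 were lower and 0 higher, where 2.46% of all genes were lower, and Ccnd2 differed by −0.87 ± 0.14 SE, edgeR adjusted p = 0.00475. Among the 14 brakes tested 1 was higher, Ccng2 (0.65 ± 0.17 SE, edgeR adjusted p = 0.044), and 2 were lower, with Cdkn1a at −2.24 ± 0.30 SE, edgeR adjusted p = 0.00138. Lin54 of DREAM (−1.18 ± 0.24 SE, edgeR adjusted p = 0.0169) and Anapc11 of the anaphase-promoting complex (−0.73 ± 0.18 SE, edgeR adjusted p = 0.0346) were lower.

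In CD4 IEL against CD8αβ IEL, 22 of the 61 further mitosis genes were lower and 0 higher, and 14 of the 24 genes of G1 and S phase were lower and 0 higher. Of all genes tested, 16.0% were lower and 12.9% higher in this comparison. The counts of the brakes, 14 of which were tested, and of the 21 E2F, DREAM, B-MYB and NF-Y regulators below are near or under these shares. The largest differences were those of Cdkn3, a phosphatase of CDK1 and CDK2 (−2.88 ± 0.61 SE, edgeR adjusted p = 0.004), and Ccnd1, a D-type cyclin (−2.67 ± 0.72 SE, edgeR adjusted p = 0.0139). Of the 15 anaphase-promoting complex genes, 6 were lower, led by Ube2s (−1.56 ± 0.28 SE, edgeR adjusted p = 0.00134), and 1 was higher, Anapc1 (1.04 ± 0.33 SE, edgeR adjusted p = 0.0296). Among the brakes 3 were higher, with Btg1 at 1.05 ± 0.18 SE, edgeR adjusted p = 0.00105, and 3 lower, with Cdkn1a at −0.87 ± 0.28 SE, edgeR adjusted p = 0.0309. Of the E2F, DREAM, B-MYB and NF-Y list, Rb1 was higher (1.04 ± 0.17 SE, edgeR adjusted p = 0.000763) and Lin37 lower (−1.03 ± 0.20 SE, edgeR adjusted p = 0.00261).

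The difference of the 2 changes was called for 5 of the 135 genes (3.704%), against 2.56% of all genes. Zwilch, a kinetochore protein, was above 0 (2.15 ± 0.45 SE, edgeR adjusted p = 0.0241), while Sgol1 (−3.61 ± 0.63 SE, edgeR adjusted p = 0.00839, resting on those few reads), Lin54 (−1.602 ± 0.34 SE, edgeR adjusted p = 0.0276), Btg2 (−0.98 ± 0.16 SE, edgeR adjusted p = 0.00512) and Ccnd2 (−0.90 ± 0.20 SE, edgeR adjusted p = 0.0289) were below 0.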
